A study of Mus musculus with 12 samples.

Results

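The complement genes examined here were 35 mouse genes for components, regulators and receptors of the complement system, chosen by name and matched to the Ensembl gene IDs of the read count tables. All 35 had a row both among the 49585 gene IDs of the liver tables and among the 55401 gene IDs of the macrophage tables. Poly(A) RNA was sequenced from C57BL/6 mice in 12 libraries, with 3 in each of 4 groups. Livers were either untreated (titled liver WT) or taken 2 h after LPS (lipopolysaccharide of bacterial walls, a ligand of toll-like receptor 4). Peritoneal macrophages were infected with lentivirus for 72 h and exposed to LPS in the last step, for 2 h. The lentivirus expressed a control hairpin (shNC) or a hairpin (shGm26917) that targets Gm26917, a long non-coding RNA. Both macrophage groups had therefore received LPS and a lentivirus, and no macrophage group without them was analysed. Age, sex, LPS dose, hairpin sequence and the animal behind each library were not stated in any source used, so the p-values measure the spread between these samples, which may be technical.

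Complement is a cascade of plasma proteins, most of them made by the liver, that marks microbes and damaged cells for uptake or lysis. It is started by C1q bound to antibody, by mannose-binding lectins bound to sugars, or by the alternative pathway, in which factor B and properdin amplify the cleavage of C3. The fragments C3a and C5a call and activate phagocytes through receptors on these cells, and the terminal components assemble a pore in the target membrane. Macrophages make C1q and several other components themselves.

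The liver libraries held 17322770 to 20913964 counts and the macrophage libraries 15605311 to 18062853. Complement genes made up 1.64% to 1.99% of all counts in liver libraries and 0.449% to 0.916% in macrophage libraries. Levels are given as CPM, counts scaled to equal library totals after adjusting these by TMM, a method that aligns the bulk of genes between libraries. Differences are log2 fold changes with their standard error (SE), tested by quasi-likelihood in edgeR, p-values being adjusted (Benjamini-Hochberg) across every gene tested in the tissue, and a gene was called at an adjusted p under 0.05. Where values of the 3 libraries of each group are joined by against, the control group (untreated or shNC) comes first, and libraries follow in the order of their replicate numbers. The hepatocyte markers summed to 75928 to 135718 CPM in the liver libraries and to 0.0675 to 0.540 CPM in the macrophage libraries, where 5 of their 10 genes had no count. In macrophages Gm26917 itself was not analysed here, so the hairpin labels were not checked against their target. A macrophage library, shNC replicate 2, stood apart: its log2 CPM correlated across genes at r = 0.950 with both other shNC libraries, which correlated at 0.990 with each other. Values without it are given beside the macrophage results that it changes.

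The liver comparison asked how complement genes stood 2 h after LPS. The receptor gene C5ar1 rose most, followed by the classical pathway protease gene C2 and the integrin gene Itgam, and Masp1, a protease gene of the lectin pathway, fell most. Of the 34 complement genes tested, 12 rose, or 35.3%, where 23.3% of all genes tested were called higher. A further 2 fell, or 5.88%, where 22.1% of all genes were called lower (45.3% in either direction). The groups did not overlap for 18 of the 34, or 52.9%, against 57.8% of all genes. The median log2 difference was 0.40 over the complement genes and -0.06 over all genes.

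These differences depend on how the libraries are scaled. TMM factors were 1.07 to 1.27 in untreated livers and 0.845 to 0.881 in LPS livers. With library totals alone the median moved to -0.01 for complement genes and -0.49 for all genes. Under that scaling 3 complement genes were called higher and 7 lower, where 14% of all genes were called higher and 38.3% lower. C2, C5ar1 and Itgam (higher) and Masp1 and C5ar2 (lower) were called in the same direction under every one of the 13 alternatives run. The other 9 called genes lost the call under library totals alone, each still with a positive difference. Cfb and Cfp are the 2 of them that no left-out library moved past the threshold.

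**Figure D1:**
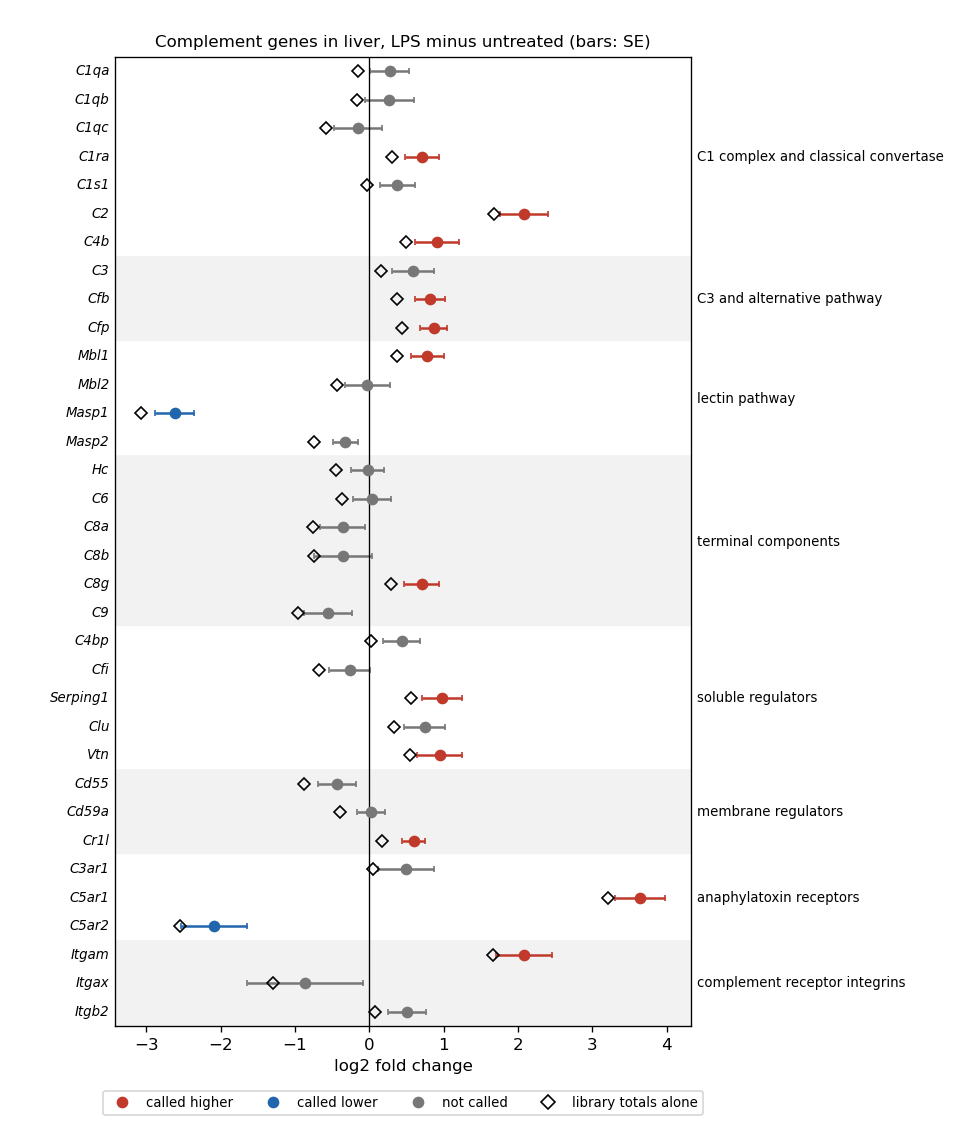
Log2 fold change, LPS liver minus untreated liver, for the 34 complement genes tested, grouped by role. Circles are the differences with TMM scaling, bars their SE, colours the call, and open diamonds the same difference with library totals alone. C5ar1, C2 and Itgam lie furthest right and Masp1 and C5ar2 furthest left under either scaling.

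C5ar1 and C5ar2 encode the receptors of C5a: C5ar1 signals through G proteins and draws in neutrophils and monocytes, whereas C5ar2 binds C5a without coupling to them. C5ar1 (chromosome 7, 16246743 to 16259540, minus strand, GRCm38) stood at 1.05, 1.20 and 0.997 CPM in the 3 untreated livers and at 8.14, 15.5 and 17.1 CPM in the 3 LPS livers. Each LPS library was above each untreated library, a difference of 3.64 ± 0.33 (log2, SE, adjusted p = 6.73e-05), or 12.5-fold. C5ar2 (chromosome 7, 16234585 to 16244154) lies 2588 bases from it on the same strand. It moved the other way, with 62, 29 and 41 counts in untreated and 5, 10 and 8 in LPS livers, which is 2.82, 1.34 and 1.78 against 0.313, 0.554 and 0.506 CPM. Here each LPS library was below each untreated one, and the fall was 4.26-fold (log2 -2.09 ± 0.44, adjusted p = 0.00552). Within a library C5ar1 therefore made up 27.1%, 47.3% and 35.9% of the counts of both receptor genes in untreated livers and 96.3%, 96.6% and 97.1% in LPS livers. Such shares are not affected by scaling between libraries, but they are not corrected for gene length, and apart from C1q their gene sets were chosen after the values were seen. C3ar1, the receptor of C3a, was at 3.18, 3.19 and 1.65 against 2.32, 4.71 and 4.24 CPM, and its groups overlapped (log2 0.49 ± 0.38, adjusted p = 0.315).

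The sequences around the starts of the C5a receptor genes are shown because these neighbours moved in opposite directions. They run from 250 bases before to 50 bases after the annotated start (RefSeq, GRCm38.p6), 5′ to 3′ on the gene's own strand, and capitals mark matches to the motifs searched. The motifs, searched on both strands, were NF-kB (GGG, any 5 bases, CC), ISRE (GAAA, any 2 bases, GAAA), GAS (TTC, any 3 bases, GAA), AP-1 (TGANTCA), C/EBP (TTGCNNAA) and the TATA box (TATAAA).
C5ar1, chr7:16259289-16259588, minus strand: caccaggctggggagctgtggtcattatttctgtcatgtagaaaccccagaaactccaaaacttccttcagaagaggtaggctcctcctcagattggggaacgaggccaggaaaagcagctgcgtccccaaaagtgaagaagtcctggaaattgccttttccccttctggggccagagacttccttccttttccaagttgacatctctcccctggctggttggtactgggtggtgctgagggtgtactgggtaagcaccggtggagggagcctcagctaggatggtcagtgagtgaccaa
C5ar2, chr7:16244105-16244404, minus strand: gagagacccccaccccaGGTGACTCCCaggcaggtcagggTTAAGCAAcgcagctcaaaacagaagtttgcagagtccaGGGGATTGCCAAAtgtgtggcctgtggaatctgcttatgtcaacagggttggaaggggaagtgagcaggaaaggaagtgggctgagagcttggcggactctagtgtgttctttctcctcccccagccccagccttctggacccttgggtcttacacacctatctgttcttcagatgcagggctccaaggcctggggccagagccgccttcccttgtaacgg
The C5ar1 window held no match. The C5ar2 window held an NF-kB match at -233 and another at -171, counted from the start, and C/EBP matches at -210 and -166, the last of them overlapping the NF-kB match at -171. Another start annotated for C5ar2 held no match. RefSeq windows were at hand for 26 of the 35 genes, 29 windows in all, and 14 of the 29 held the NF-kB motif, which 50.8% of all 32851 windows hold. The C/EBP motif was in 5 of the 29 and in 10.8% of all, GAS in 4 and 8.3%, the TATA box in 4 and 13.6%, AP-1 in 3 and 7.81%, and ISRE in 2 (Cd59a and Vtn) and 3.44%. A match describes letters only.

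The integrin genes Itgam and Itgax encode the alpha chains of complement receptors 3 and 4, which bind C3 fragments on particles, and Itgb2 encodes the beta chain they share. Itgam stood at 0.454, 0.741 and 0.390 CPM (10, 16 and 9 counts) in untreated and 2.07, 2.22 and 2.47 CPM (33, 40 and 39 counts) in LPS livers. It rose 4.23-fold without overlap (log2 2.08 ± 0.38, adjusted p = 0.00255). Of its annotated exon bases, 68.7% are shared with Gm49368, which had at most 1 count in a liver library, so the level of Itgam depends on how shared reads were assigned. Itgb2 was at 6.77, 6.62 and 5.68 against 6.20, 10.9 and 9.99 CPM, overlapping because LPS replicate 1 was low (log2 0.51 ± 0.25, adjusted p = 0.132, and 0.73 with adjusted p = 0.0266 without that library). Itgax had 23, 15 and 30 counts in untreated and 21, 1 and 5 in LPS livers, where LPS replicate 1 was the high one (log2 -0.87 ± 0.78, adjusted p = 0.391, and -2.44 with adjusted p = 0.0349 without that library).

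Among the leukocyte marker lists, that of neutrophils differed most between the liver groups. The summed neutrophil markers were 3.91 to 9.28 CPM in untreated and 227 to 319 CPM in LPS livers. Of their 12 genes 10 were tested, 9 rose and none fell, and none of the 12 lacked counts in every library. The monocyte markers summed to 74.8 to 108 CPM and 307 to 520 CPM, with 3 of 7 tested higher and 2 lower. Among the Kupffer cell markers, 2 of 10 rose and 2 fell. The summed level of that list was 363 to 406 CPM in untreated and 389 to 679 CPM in LPS livers. Of the dendritic cell markers, 1 of 4 tested rose and 1 fell. Of the T and NK cell markers, 3 of 10 tested rose and 0 fell, and of the B cell markers 0 of 7 rose and 1 fell. In whole liver, more cells of a type and more RNA per cell cannot be told apart, and the part of these cells in the rise of C5ar1 and Itgam was not tested.

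Mannose-binding lectins bind sugars on microbes, and the MASP proteases bound to them cleave the next components. Masp1 (chromosome 16, 23449417 to 23520815) stood at 48.1, 33.8 and 50.5 CPM in untreated livers and 5.13, 7.43 and 8.98 CPM in LPS livers. All 3 LPS libraries were far below all 3 untreated libraries, a fall of 6.14-fold (log2 -2.62 ± 0.26, adjusted p = 0.000106). Masp2, which encodes the protease that cleaves C4 and C2, was at 125, 129.7 and 112 against 94.4, 101 and 99.3 CPM. Its LPS libraries lay just below its untreated ones and it was not called (log2 -0.32 ± 0.17, adjusted p = 0.151), although library totals alone gave -0.75 and adjusted p = 0.00703. Masp1 took 27.8%, 20.6% and 31.0% of the counts of both MASP genes in untreated livers and 5.16%, 6.88% and 8.29% in LPS livers. Of the Masp2 exon bases, 54.9% lie opposite Tardbp exons, which had 1215 to 1537 counts in the liver libraries, and it is not known whether counting used strand.

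Mbl1 rose, at 123, 178 and 125 CPM in untreated livers and 232, 261 and 239 CPM in LPS livers, without overlap. The difference was 0.78 ± 0.22 (log2, SE, adjusted p = 0.0175), and the adjusted p was 0.0685 without LPS replicate 2 and 0.0552 without LPS replicate 3. Mbl2, at 202, 383 and 367 against 226, 362 and 346 CPM, was low in replicate 1 of each group and differed by -0.03 ± 0.30 (adjusted p = 0.949). Mbl1 made up 37.8%, 31.8% and 25.3% of the counts of both genes in untreated livers and 50.7%, 41.9% and 40.9% in LPS livers, again without overlap. The windows around their starts are shown because the lectin genes differ in this way. They held no match to the 6 motifs, and capitals mark the longest run of letters they share.
Mbl1, chr14:41151206-41151505, plus strand: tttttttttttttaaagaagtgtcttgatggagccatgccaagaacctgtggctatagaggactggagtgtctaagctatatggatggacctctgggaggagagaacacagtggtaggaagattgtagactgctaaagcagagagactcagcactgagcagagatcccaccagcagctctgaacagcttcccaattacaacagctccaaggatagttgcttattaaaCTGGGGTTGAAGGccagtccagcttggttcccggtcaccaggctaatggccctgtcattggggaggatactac
Mbl2, chr19:30232678-30232977, plus strand: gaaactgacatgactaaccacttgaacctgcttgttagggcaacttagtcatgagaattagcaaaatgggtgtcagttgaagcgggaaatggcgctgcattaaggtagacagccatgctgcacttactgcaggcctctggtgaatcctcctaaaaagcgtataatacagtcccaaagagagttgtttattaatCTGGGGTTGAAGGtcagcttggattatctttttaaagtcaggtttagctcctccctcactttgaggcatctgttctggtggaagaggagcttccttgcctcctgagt
The shared run of 13 bases begins at -23 in Mbl1 and at -57 in Mbl2, and 3 of all 32851 windows hold it on either strand.

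**Figure D2:**
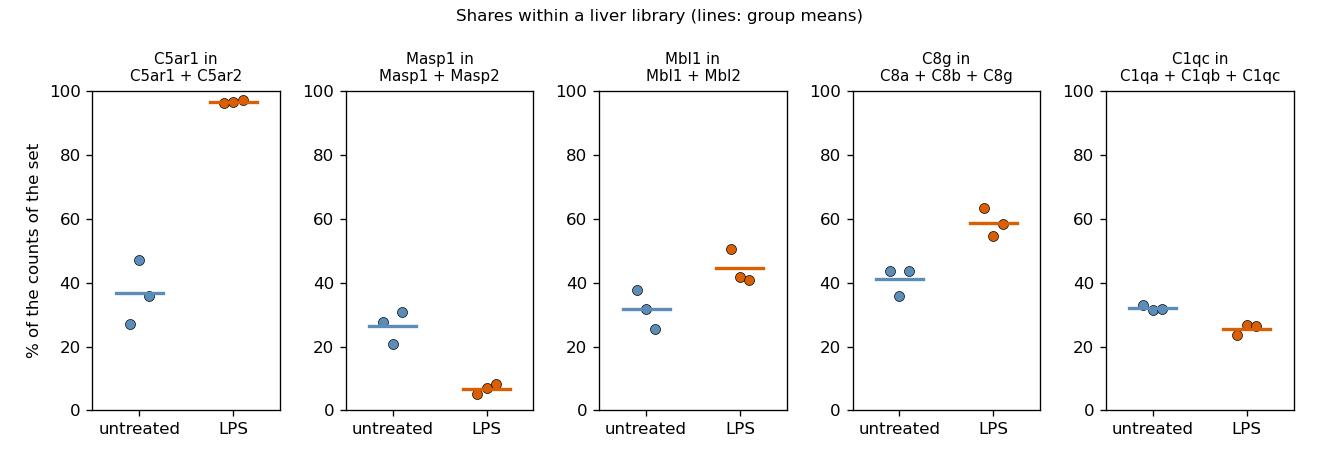
Share of 1 gene in the summed counts of its set, in % per liver library, for 5 sets of complement genes. Points are libraries (3 untreated, 3 LPS) and lines are group means. The C5ar1 share lay between 27.1% and 47.3% in untreated livers and between 96.3% and 97.1% in LPS livers, and the shares of the other sets moved less.

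In the classical pathway, C1q recognises the target, the proteases C1r and C1s cleave C4 and C2, and the fragments of these form the enzyme that splits C3. Of the 7 genes here, 3 were called higher and none lower, where 23.3% of all genes were called higher and 22.1% lower. C2 (chromosome 17, 34862604 to 34898265) stood at 13.9, 24.7 and 29.5 CPM in untreated livers and 131, 85.4 and 72.4 CPM in LPS livers. The groups were far apart and the rise was 4.23-fold (log2 2.08 ± 0.32, adjusted p = 0.00122). C4b, at 657, 936 and 1299 against 1923, 1822 and 1697 CPM, rose 1.88-fold (log2 0.91 ± 0.29, adjusted p = 0.0327), and leaving out untreated replicate 1 or 2 or any LPS replicate gave adjusted p of 0.0667 to 0.0934. Its near-identical copy C4a had 127 to 249 counts in the liver libraries, against 14470, 20219 and 29972 for C4b in untreated livers, and how reads shared by the copies were divided is not known. C1ra rose from 143, 224 and 177 CPM to 322, 279.7 and 288 CPM (log2 0.71 ± 0.22, adjusted p = 0.0300), with adjusted p of 0.0717 to 0.0801 without untreated replicate 1 or any LPS replicate. Its neighbour C1s1, at 194, 309 and 278 against 378, 332 and 302 CPM, was not called (log2 0.37 ± 0.24, adjusted p = 0.227).

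C1q is built from 3 chains encoded by C1qa, C1qb and C1qc, which lie together on chromosome 4 with 3616 and 2851 bases between them. C1qa was at 42.3, 53.2 and 34.6 CPM in untreated livers and 35.2, 66.8 and 55.6 CPM in LPS livers. C1qb was at 40.9, 43.6 and 33.3 against 24.0, 64.4 and 53.7 CPM. C1qc was at 41.2, 44.6 and 31.5 against 18.3, 47.6 and 39.3 CPM. In all 3 genes LPS replicate 1 was the low LPS library, and none was called (log2 0.28 ± 0.26, 0.27 ± 0.33 and -0.16 ± 0.32). The signs for C1qa and C1qb turn negative with library totals alone (-0.15 and -0.16). Without LPS replicate 1, C1qb was called at 0.60 with adjusted p = 0.0457. The Kupffer cell marker Vsig4, encoding a receptor for C3b, was low in the same library. It was at 25.7, 28.8 and 18.7 CPM in untreated livers and 2.94, 21.3 and 19.3 CPM in LPS livers. All 10 Kupffer cell markers together summed to 389, 679 and 490 CPM in LPS livers, against 363 to 406 CPM in untreated livers. LPS replicate 1 was thus the lowest LPS library for this sum but lay within the untreated range. The part of these cells in the C1q values was not tested. The C1qc share of the counts of the 3 chains was 33.1%, 31.5% and 31.7% in untreated livers and 23.7%, 26.6% and 26.5% in LPS livers, lower in each LPS library. The C1qa share was 34.0%, 37.6% and 34.8% against 45.4%, 37.4% and 37.4%, which overlap.

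**Figure D3:**
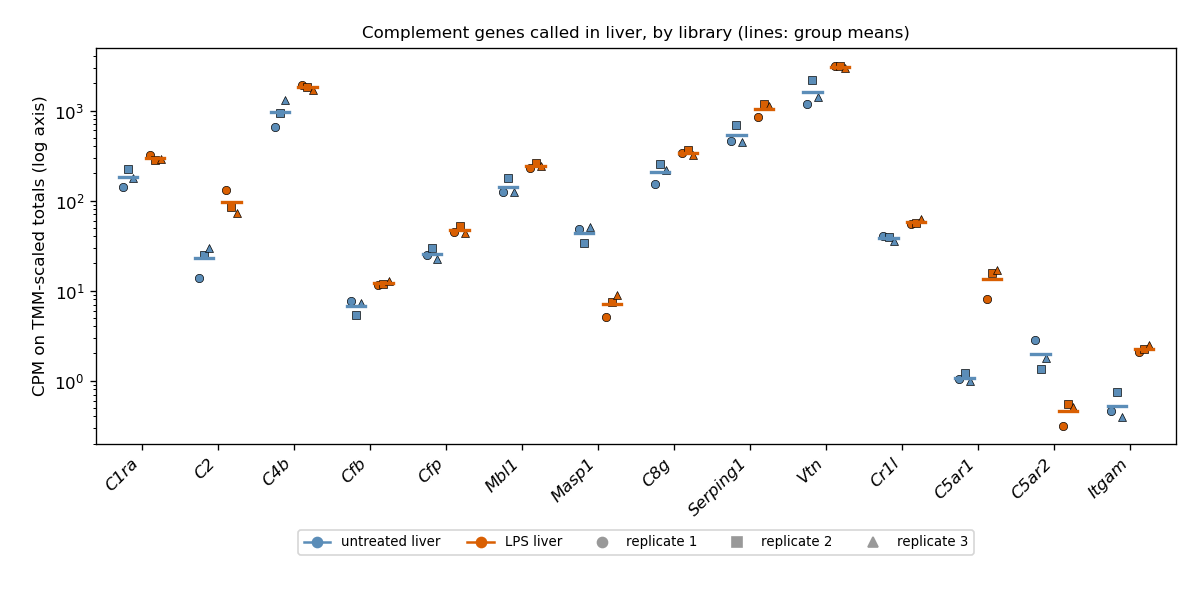
Levels of the 14 complement genes called in liver, in CPM on a log axis, by library. Points are libraries, shapes the replicate numbers and lines the group means. C5ar1 stands between 0.997 and 1.20 CPM in untreated and between 8.14 and 17.1 CPM in LPS livers, and Masp1 falls from 33.8 to 50.5 CPM to 5.13 to 8.98 CPM.

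C3, the central protein that every pathway cleaves, was the most abundant complement transcript per length in liver, at 1465 ± 153 RPKM (CPM per kilobase of exon, mean and SD, n = 3) in untreated and 2203 ± 23.7 in LPS livers. It stood at 7524.5, 8325 and 6748 CPM in untreated livers and 11362, 11192 and 11429 CPM in LPS livers. The groups did not overlap, yet the gene was not called (log2 0.59 ± 0.28, adjusted p = 0.122), whereas DESeq2 gave adjusted p = 0.00889 at 0.59. Cfb, encoding factor B of the alternative convertase, rose from 7.72, 5.42 and 7.24 CPM to 11.5, 11.8 and 12.7 CPM (log2 0.82 ± 0.21, adjusted p = 0.0118). Cfp, encoding properdin, which stabilises that convertase, rose from 24.8, 30.0 and 22.3 CPM to 44.9, 51.8 and 43.8 CPM (log2 0.87 ± 0.18, adjusted p = 0.00484). Both had separate groups. Cfd, encoding factor D, had 0, 0 and 1 counts in untreated and 11, 0 and 1 in LPS livers and was the 1 gene not tested. Cfb and C2 are neighbours on chromosome 17 with 85 bases between them, and 79.5% and 42.8% of their exon bases are shared with Gm20547, which had at most 1 count in a liver library and none in a macrophage library. Their levels therefore depend on how shared reads were assigned.

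The terminal genes Hc (complement C5), C6, C8a, C8b, C8g and C9 encode the proteins of the membrane pore. Of these 6, C8g was called higher and none lower, where 23.3% of all genes were called higher and 22.1% lower. C8g stood at 154, 257 and 219 CPM in untreated livers and 339, 369 and 318 CPM in LPS livers (log2 0.70 ± 0.24, adjusted p = 0.0386, and 0.0724 to 0.125 without untreated replicate 1 or any LPS replicate). C8a was at 124, 247 and 203 against 119, 196 and 134 CPM and was not called (log2 -0.36 ± 0.30). C8b, at 74.2, 209 and 77.7 against 76.5, 112 and 93.7 CPM, was not called either (log2 -0.35 ± 0.39), and untreated replicate 2 stood far above the other libraries, without which the difference was 0.28 (adjusted p = 0.348). C8g took 43.7%, 36.0% and 43.8% of the counts of the 3 C8 genes in untreated livers and 63.4%, 54.5% and 58.3% in LPS livers, higher in each LPS library than in each untreated one. C9 was at 76.9, 172 and 135 against 62.8, 108 and 91.3 CPM (log2 -0.55 ± 0.32, adjusted p = 0.185), and without untreated replicate 1 it was called at -0.82 with adjusted p = 0.0417. Hc, at 434, 538 and 595 against 551, 489.7 and 502 CPM, differed by -0.02 ± 0.22 (log2, SE). C6, at 10.7, 17.0 and 10.5 against 10.7, 16.5 and 12.1 CPM, differed by 0.04 ± 0.26, which library totals alone turn to -0.37. The groups overlapped in both. Library totals alone also changed the calls in this set: C8a (-0.76, adjusted p = 0.0417) and C9 (-0.96, adjusted p = 0.0217) were called lower, and C8g was not called (0.30, adjusted p = 0.247).

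Soluble regulators keep the cascade off host surfaces. Serping1 encodes C1 inhibitor, which blocks C1r, C1s and the MASPs, and rose from 454, 688 and 449 CPM in untreated to 838, 1189.7 and 1116 CPM in LPS livers. Its groups did not overlap (log2 0.98 ± 0.27, adjusted p = 0.0176), and the adjusted p was 0.0738 without LPS replicate 2 and 0.0661 without LPS replicate 3. Vtn, encoding vitronectin, which binds forming pores, stood at 1171, 2202 and 1423 against 3119, 3123 and 2988.5 CPM. The LPS libraries lay close together and above all untreated ones (log2 0.94 ± 0.30, adjusted p = 0.0307), with adjusted p of 0.0529 to 0.0949 when untreated replicate 1 or 3 or any LPS replicate was left out. Clu, encoding clusterin, another pore inhibitor, was at 750.2, 1096 and 781 against 1146, 1660.4 and 1593 CPM and missed the threshold (log2 0.74 ± 0.27, adjusted p = 0.0508). It passed under 5 alternatives, among them those without untreated replicate 2 (adjusted p = 0.0358) and without LPS replicate 1 (0.0412). C4bp, encoding the C4b-binding protein, was at 249, 389 and 388 against 397, 518.5 and 471 CPM and was not called (log2 0.43 ± 0.25, adjusted p = 0.183). Cfi, encoding the protease that destroys C3b and C4b, was at 369, 664 and 578 against 367, 473 and 501 CPM, with overlapping groups (log2 -0.27 ± 0.27, adjusted p = 0.454).

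Of the regulators anchored in membranes, Cr1l, the mouse gene of Crry, which limits C3 cleavage on cells, rose from 40.0, 39.4 and 35.7 CPM to 55.0, 56.3 and 62.8 CPM (log2 0.60 ± 0.16, adjusted p = 0.0144, and 0.0677 without LPS replicate 3). Cd55, encoding decay-accelerating factor, was at 10.4, 6.53 and 11.3 against 7.08, 6.15 and 7.65 CPM (log2 -0.44 ± 0.25, adjusted p = 0.187), and without untreated replicate 2 it was called at -0.67 with adjusted p = 0.0448. Cd59a, whose product blocks the pore, was at 58.5, 76.5 and 67.6 against 78.1, 67.2 and 60.2 CPM and differed by 0.02 ± 0.19. Its groups overlapped almost wholly, and library totals alone gave -0.40.

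Per length, Vtn came next to C3 in untreated liver at 788 RPKM, followed by Mbl2 at 291, Clu at 255, Cfi at 242, Serping1 at 228, C4b at 169 and C8g at 140. From Mbl2 to Serping1, neighbours in this order differed by less than their SDs of 55.6 to 91.7 RPKM. In LPS livers the order was C3, Vtn at 1516, Serping1 at 451, Clu at 427, C4b at 319, Mbl2 at 286, C8g at 229 and Cfi at 201 RPKM.

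A list of 29 other complement genes was read beside these. In liver 24 were tested, of which 5 rose and 3 fell, where 23.3% of all genes were called higher and 22.1% lower. The pentraxin genes had the largest rises, and their products bind C1q. Apcs, encoding serum amyloid P, rose from 54.8, 99.0 and 67.5 CPM to 443, 469.9 and 411 CPM (log2 2.58 ± 0.27, adjusted p = 0.000131). Crp rose from 324, 414 and 324 CPM to 1211, 1714 and 1583 CPM (log2 2.09 ± 0.25, adjusted p = 0.000336). Ptx3 had no count in untreated livers and 96, 12 and 18 counts in LPS livers, a level at least 57.9-fold higher than a floor of 3 counts over the untreated group, and at least 20.0-fold without LPS replicate 1. The phagocyte and endothelial receptor gene Cd93 rose by 1.71 ± 0.26 (adjusted p = 0.00112). Colec10, encoding a collectin of the lectin pathway, fell from 34.3, 22.0 and 21.8 CPM to 14.7, 12.9 and 10.3 CPM (log2 -1.05 ± 0.24, adjusted p = 0.00782). Cd59b, the copy of Cd59a, fell by 1.09 on the log2 scale (adjusted p = 0.0346), and each left-out library other than untreated replicate 1 ended that call, with adjusted p of 0.0701 to 0.110.

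The macrophage comparison asked how the genes differed between cells with the Gm26917 hairpin and cells with the control hairpin, both under LPS. Of the 35 genes, 21 were tested. Itgb2 was the 1 gene that rose and Cfb the 1 that fell, each 4.76% of those tested, where 12.6% of all genes tested were called higher and 11.1% lower (23.7% in either direction). The groups did not overlap for 6 of the 21, or 28.6%, against 45.9% of all genes. Neither call held under every one of the 13 alternatives. The median log2 difference was 0.25 over the 21 genes and 0.00 over all genes, and 0.54 and 0.29 with library totals alone, where 24.3% of all genes were called higher and 6.17% lower.

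Among the 14 genes not tested, C4bp, C8b, C9, Cfd, Mbl1, Mbl2 and Vtn had no count in any of the 6 libraries, which together allows up to 0.0299 CPM (3 of 99670523 counts, for counting error only). Hc, C6, C8a, Cfi, Masp2 and Serping1 had at most 6 counts in a library, and Masp1 had 4, 12 and 2 in shNC and 1, 5 and 40 in shGm26917 libraries. Per length the shNC order was Itgb2 at 404 RPKM, Cfp at 387, C3 at 197, C4b at 180, Itgam at 167 and Cfb at 146. The shGm26917 order was Itgb2 at 742, Cfp at 288, C3 at 234, Itgam at 199, C1qa at 174 and C4b at 165 RPKM.

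**Figure D4:**
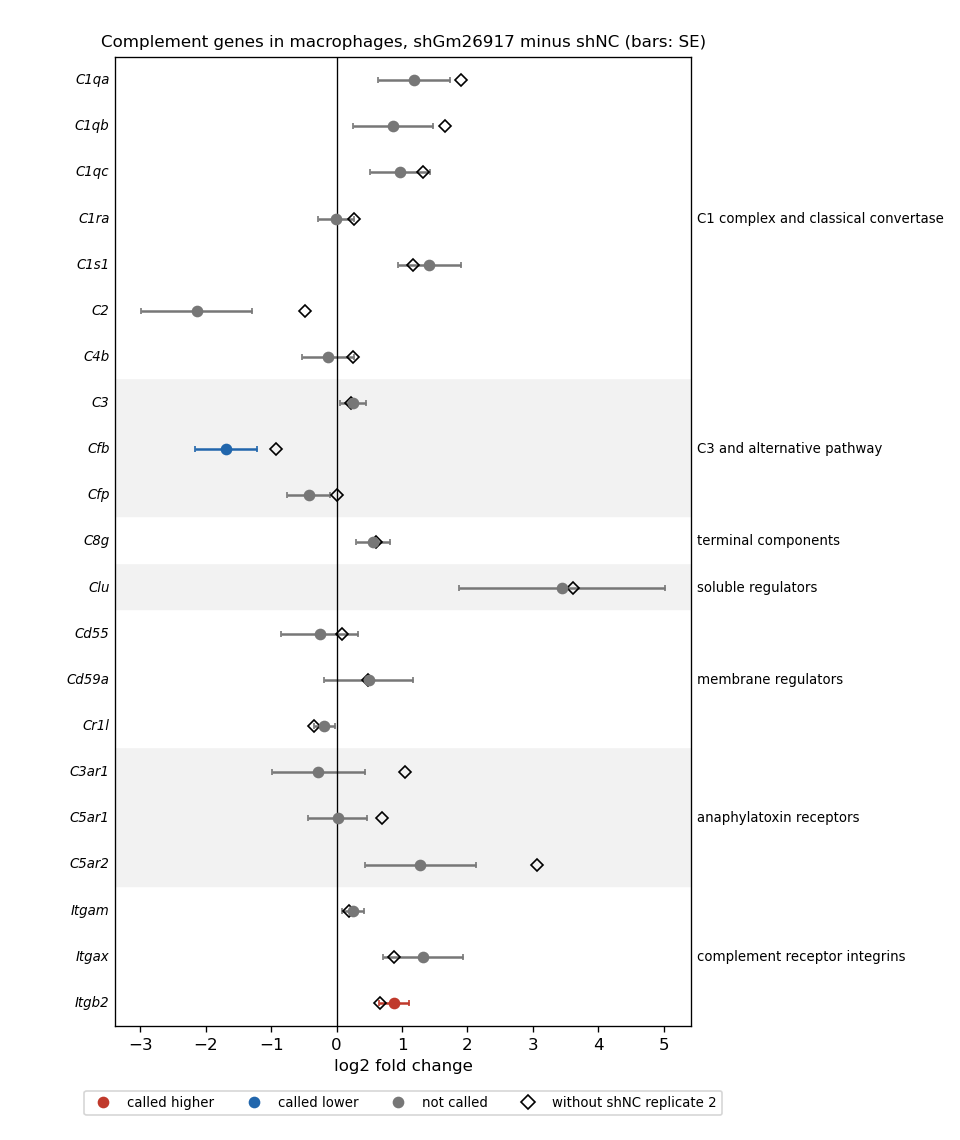
Log2 fold change, shGm26917 minus shNC macrophages, for the 21 complement genes tested, grouped by role. Circles are the differences with all 6 libraries, bars their SE, colours the call, and open diamonds the differences without shNC replicate 2. C3ar1 lies at -0.28 with that library and at 1.05 without it.

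Itgb2, the shared integrin beta chain, stood at 1505, 883 and 1312 CPM in shNC and 2181.5, 2235 and 2377 CPM in shGm26917 cells. Every shGm26917 library was higher, by 1.84-fold (log2 0.88 ± 0.23, adjusted p = 0.0363, and 0.67 with adjusted p = 0.0101 without shNC replicate 2). The adjusted p was 0.0860 without shNC replicate 3 and 0.0962, 0.111 and 0.122 without shGm26917 replicates 1, 2 and 3. Itgam was at 848, 779.9 and 886 against 1163, 934 and 899 CPM and was not called (log2 0.25 ± 0.16, adjusted p = 0.298), although its groups did not overlap and library totals alone called it (0.54, adjusted p = 0.0437). Of its exon bases 68.7% are shared with Gm49368, which had 33 to 41 counts in these libraries. Itgax was at 80.6, 13.3 and 43.1 against 76.9, 102 and 164 CPM, with shNC replicate 2 lowest and overlapping groups (log2 1.33 ± 0.61, adjusted p = 0.157).

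Cfb stood at 233, 756 and 246 CPM in shNC and 116, 145 and 122 CPM in shGm26917 cells. All shGm26917 libraries were below all shNC ones, with shNC replicate 2 far above both others (log2 -1.69 ± 0.47, adjusted p = 0.0438). Without shNC replicate 2 the difference was -0.92 with adjusted p = 0.00136. Library totals alone gave adjusted p = 0.0590, and the left-out libraries that ended the call were shNC replicate 3 (0.0502) and shGm26917 replicates 1, 2 and 3 (0.134, 0.121 and 0.137). Its neighbour C2 had the same shape at 2.48, 19.4 and 2.63 against 1.88, 2.19 and 1.47 CPM and was not called (log2 -2.14 ± 0.85, adjusted p = 0.112, and 0.0210 by DESeq2). Without shNC replicate 2 the C2 difference was -0.48 with adjusted p = 0.250.

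Other abundant components were not called and their groups overlapped. Cfp was at 552, 1032 and 434 against 556, 532 and 414 CPM (log2 -0.43 ± 0.33), and without shNC replicate 2 the difference was 0.01. C3 was at 1059, 982 and 993 against 1224, 1454.5 and 934 CPM (log2 0.25 ± 0.20). C4b was at 800.5, 1517 and 763 against 848, 1376 and 591 CPM, with replicate 2 highest in each group (log2 -0.13 ± 0.39). The sign of C4b turned without shNC replicate 2 (0.25) and with library totals alone (0.17).

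C1qa was at 51.6, 143 and 44.7 CPM in shNC and 165, 279 and 99.9 CPM in shGm26917 cells. C1qb was at 55.9, 173.5 and 50.7 against 127, 289.9 and 92.1 CPM. For C1qc the levels were 55.3, 95.5 and 46.5 against 93.0, 219 and 75.2 CPM. Replicate 2 was the highest library of each group in all 3 genes, so the groups overlapped. The log2 differences of C1qa, C1qb and C1qc were 1.18 ± 0.55, 0.86 ± 0.61 and 0.97 ± 0.46, and none was called (adjusted p = 0.159, 0.338 and 0.167). Without shNC replicate 2 they were called at 1.90, 1.65 and 1.33 (adjusted p = 0.00646, 0.0207 and 0.0395). C1s1, encoding the C1s protease, was at 4.28, 1.48 and 1.21 against 7.02, 6.18 and 5.49 CPM, separate but not called (log2 1.42 ± 0.48, adjusted p = 0.0746). Without shNC replicate 1 it was called at 2.18 with adjusted p = 0.0105. C1ra was at 28.4, 40.2 and 20.2 against 30.4, 35.4 and 22.5 CPM and differed by -0.01 ± 0.28.

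The differences in the receptors of C3a and C5a also depended on shNC replicate 2. C3ar1 stood at 127, 817 and 164 CPM in shNC and 398, 312 and 201 CPM in shGm26917 cells, a difference of -0.28 ± 0.71 (adjusted p = 0.799). The 3 shGm26917 libraries were above shNC replicates 1 and 3 and below replicate 2, and without replicate 2 the direction turned, at 1.05 with adjusted p = 0.0183. C5ar1 was at 74.2, 244 and 96.4 against 152, 163 and 104 CPM (log2 0.02 ± 0.45), and without that library it was called at 0.70 with adjusted p = 0.0331. C5ar2 had 5, 30 and 2 counts in shNC and 49, 45 and 20 in shGm26917 cells (log2 1.28 ± 0.85, adjusted p = 0.311), and without that library it was called at 3.06 with adjusted p = 0.00647. C5ar1 held 98.4% to 99.9% of the counts of both C5a receptor genes in every macrophage library. In all, 7 complement genes were called higher and 1 lower without shNC replicate 2, where 20.5% of all genes were called higher and 19.1% lower.

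Cr1l was at 81.8, 66.3 and 99.0 against 69.9, 70.4 and 76.5 CPM, overlapping, and was not called (log2 -0.19 ± 0.16). Clu had 4, 14 and 16 counts in shNC and 2, 33 and 411 in shGm26917 libraries, with shGm26917 replicate 3 far above the others (log2 3.44 ± 1.58, adjusted p = 0.156, and 0.31 with adjusted p = 0.882 without that library). Cd55, Cd59a and C8g were at most 4.79, 0.763 and 2.09 CPM in a library, and none was called.

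**Figure D5:**
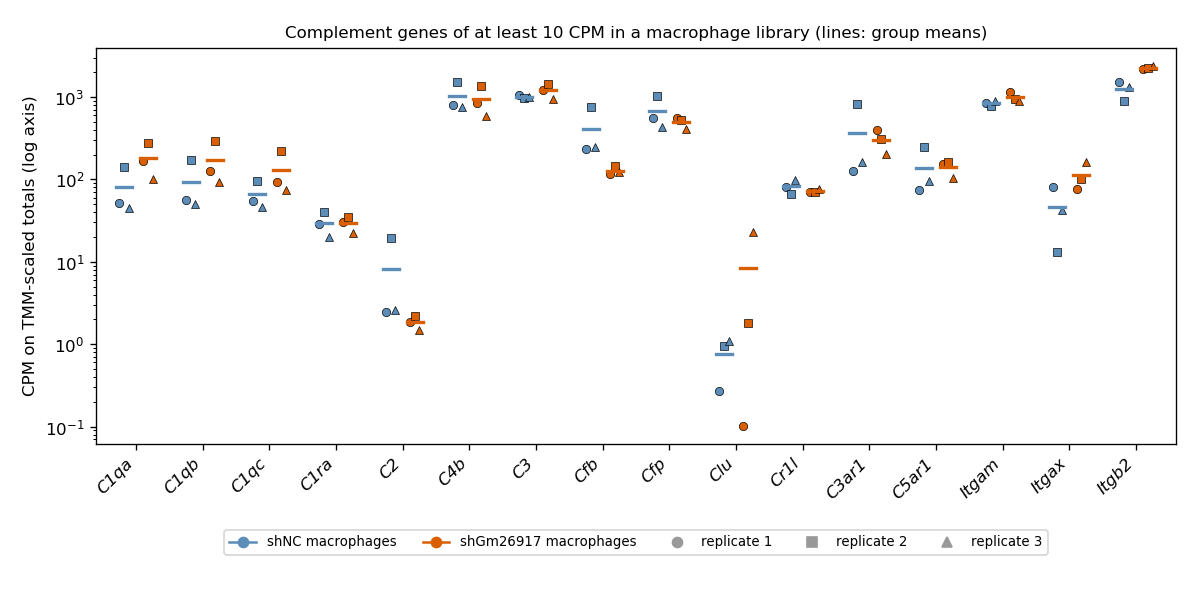
Levels of the complement genes that reached 10 CPM in a macrophage library, in CPM on a log axis, by library. Points are libraries, shapes the replicate numbers and lines the group means. The square of shNC replicate 2 stands above both other shNC libraries in C3ar1, C2 and Cfb, at 817, 19.4 and 756 CPM.

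Among the 29 other complement genes, 12 were tested in macrophages, of which 4 rose and 1 fell, where 12.6% of all genes were called higher and 11.1% lower. Vsig4 rose from 3.61, 1.82 and 4.79 CPM to 16.8, 23.9 and 10.2 CPM (log2 2.31 ± 0.44, adjusted p = 0.0140, and 0.0564 without shGm26917 replicate 2). Cd93 rose from 51.3, 91.4 and 54.8 CPM to 299, 388 and 234 CPM and was called under all 13 alternatives (log2 2.22 ± 0.29, adjusted p = 0.00541). C1rl, encoding a C1r-like protease, rose by 1.34 ± 0.30 (adjusted p = 0.0226, and 0.0600 to 0.0886 without any 1 shGm26917 replicate). Calr, encoding calreticulin, fell by 0.61 on the log2 scale (adjusted p = 0.0453, and 0.0588 to 0.149 without any library other than shNC replicate 2). It was called in 4 of the 13 alternatives, and library totals alone gave -0.32 with adjusted p = 0.184.

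Sums of cell type markers also varied between the macrophage libraries. The summed monocyte markers were 16951 and 18731 CPM in shNC replicates 1 and 3, 7949 CPM in shNC replicate 2 and 14640 to 23303 CPM in shGm26917 libraries, with 2 of 7 tested genes higher and 2 lower. The summed neutrophil markers were 782 to 1241 CPM in shNC and 625 to 752 CPM in shGm26917 libraries, with 1 of 5 tested higher and 2 lower, and Retnlg, Ly6g and Ngp had no count. Large peritoneal macrophage markers summed to 3038 to 3779 CPM and 3500 to 4078 CPM, with 1 of 10 tested higher. B cell markers summed to 221 to 663 CPM and 164 to 370 CPM. The part of these cells in the complement differences was not tested.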

How the data were processed

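Poly(A) RNA of liver and cultured peritoneal macrophages was sequenced in 12 libraries, grouped by the labels' titles and treatments. For every library the authors deposited a table of raw counts, in whole numbers, with a line for each Ensembl gene. STAR, featureCounts 1.6.3 and mm10 appear in the submitters' processing notes. Parameters, annotation, strand use and the handling of shared reads were not stated in any source used. The macrophage headers carry the word combined, without explanation.

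Each tissue was fitted alone in edgeR 4.0.16 (R 4.3.3), on group alone. The filterByExpr function kept the genes tested (13869 in liver, 12876 in macrophages), totals were scaled by TMM, and groups were compared with the 2-sided quasi-likelihood F test with Benjamini-Hochberg adjustment. Log2 fold changes are treated minus control. The SE was taken from F, as the size of the log2 fold change over the square root of F. RPKM uses exon lengths of GENCODE M21 (GRCm38). On simulated counts in these designs, 90.4% of 4-fold and 11.2% of 2-fold changes were recovered in liver, and 79.8% and 24% in macrophages. The simulation changed 94 genes by 4-fold and 98 by 2-fold of 13613 in liver, and 99 and 96 of 12644 in macrophages. In the data 45.3% and 23.7% of genes were called. The adjustment was therefore stricter in the simulation, and these shares do not measure recovery in the data.

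The alternatives were RLE size factors, library totals alone, no filter, at least 1 CPM in 3 libraries, DESeq2 1.42.0, a replicate block, all 12 libraries in 1 fit, and each library left out. The complement genes and lists were chosen with earlier results of these data known. Every gene of the 35 is accounted for, and of the other complement genes called, up to 6 with the largest difference per comparison are named, except 1 gene that is not reported here.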

Additional observations from a re-analysis of the deposited data

How the results depend on the processing

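In liver, 388 of 442 gene results under the alternatives kept their side of the threshold, 38 lost the call, 16 gained it and 0 reversed. In macrophages these numbers were 246, 9, 15 and 1 of 271. A change of sign was counted as reversed only for a gene called in the results above or under the alternative. Genes that changed sign without a call, such as C1qa and C6 in liver and C4b in macrophages, were counted among the 388 and 246. The reversed result was C3ar1, which ranged from -0.71 to 1.05 when each replicate was left out (1.05 without shNC replicate 2) against -0.28 with all libraries, and the cause was not tested.

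In liver, complement genes called higher fell from 12 to 3 with library totals alone, and those called lower went from 2 to 7. Leaving out each replicate gave 5 to 12 higher and 2 to 3 lower, and 4865 to 6227 genes called in all. In macrophages, complement genes called higher were 2 by DESeq2 and with all 12 libraries in 1 fit and 3 with library totals alone. Those called lower were 2, 2 and 0 in the same settings. By DESeq2 they were Cfb and C2, and in the fit of all 12 libraries Cfb and Hc. Hc had 2, 6 and 0 counts in shNC and no count in shGm26917 libraries. It entered that fit because low counts were filtered over liver and macrophage libraries together, and it was not tested in macrophages alone. Leaving out each replicate gave 0 to 7 higher and 0 to 1 lower, and 839 to 5236 genes called, against 3049 with all libraries. The cause of these moves was not tested, beyond the smaller number of samples when a library is left out.

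Whether replicate numbers pair the samples was not stated, and 3 libraries per group are too few to decide it. Correlations of same-numbered deviations were 0.14, 0.07 and -0.08 in liver and -0.06, 0.27 and 0.23 in macrophages. Not every sample correlated best with its own number. With the replicate block, 5754 genes were called in liver, with 11 complement genes higher and 2 lower. In macrophages the block gave 2594 genes, with 5 complement genes higher (Itgb2, C1s1 and the 3 C1q chain genes). Cfb was called lower with the block (log2 -1.46, adjusted p = 0.0357).

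Depth limits the members with few counts: in liver, C5ar2 and Itgam rest on 5 to 62 and 9 to 40 counts per library.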
